A study of Mus musculus with 4 samples.

Results

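The genes described here encode the protein subunits of the mitochondrial ribosome and the machinery that brings proteins into mitochondria. They were taken as all probe sets of the array whose only gene symbol in the platform annotation starts with Mrpl, Mrps, Timm or Tomm. The rule uses symbols and no signal, but these gene families were picked with earlier results of these data known. The rule found 170 of 22690 probe sets, for 96 of 12394 genes. Mrpl and Mrps, the large and small ribosomal subunits by name, gave 127 probe sets for 74 genes, and Timm and Tomm, the translocases of the inner and outer membrane, gave 43 probe sets for 22 genes.

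The arrays were of mouse osteoclast cultures lacking NFATc1, a transcription factor that RANKL induces and that drives osteoclast formation, and of wild-type cultures. NFATc1-deficient mice were NFATc1 fl/fl MxCre+ and wild-type mice were NFATc1 fl/fl MxCre-, so that all mice carried the floxed alleles, on the C57BL/6 strain. Sorted CD11b-, CD3e-, B220-, c-Kit+, c-Fms+ marrow precursors were cultured for 3 days with M-CSF, a survival factor, and RANKL. Each genotype had 2 arrays, 1 from a pool of 3 mice and 1 from a pool of 4 mice. The Mx promoter that drives Cre responds to interferon and to poly I:C, an RNA mimic, and is not restricted to osteoclasts. The sources used here give neither the ages of the mice nor whether poly I:C was given to wild-type mice.

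Nfatc1 itself had signals of 3018.2 and 4097.9 in NFATc1-deficient cultures, against 5433.6 and 6146.7 in wild-type cultures, so the deficient cultures were lower but kept signal. Its log2 change was -0.71 (SE 0.15, adjusted p = 0.0104, limma), or -0.49 (adjusted p = 0.0871) without replicate 1 of the deficient cultures. Which part of the gene the probe set reads was not examined. All 8 tested osteoclast markers fell, with a median log2 change of -1.57, and their summed signal was 20704.5 and 27933.1 in deficient cultures, against 49261.1 and 55878.7 in wild-type cultures. Of 9 granulocyte markers, 3 rose (S100a8, S100a9 and Ngp) and the list sum was 16637.2 and 7945.7 in deficient cultures, against 6220.9 and 6413.8 in wild-type cultures. Of 8 macrophage markers Cd68 (log2 change -0.68) and Csf1r (-0.41) fell and Cd14 (0.54) rose, and of 2 tested lymphoid markers Il7r rose (1.15). None of the markers listed was at 0 on all arrays, and the part of other cells in the results below was not tested. In such bulk RNA, fewer cells of a type and less RNA per cell cannot be told apart.

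Mitochondria make a small set of respiratory chain subunits on their own ribosomes, whose proteins are all encoded in the nucleus. Those ribosomal proteins, like nearly all mitochondrial proteins, are made in the cytosol and enter through the TOM channel of the outer membrane. The TIM23 complex with its motor then carries proteins with a presequence into the matrix, and the TIM22 complex inserts carrier proteins into the inner membrane with the help of small Tim chaperones. Osteoclasts are known for abundant mitochondria.

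Promoters are shown for 3 members whose fall or rise stood out, as RefSeq gives them on build GRCm38.p6, from 250 bases before to 50 bases after the gene start, in the direction of transcription. Mrps36 had the most negative change of all members. The largest rise belonged to Mrpl13, whose promoter is not used here. Tomm40, the TOM channel, and Tomm70a, a TOM receptor, were chosen after their values were seen. The windows lie at chr13:100744610-100744909 on the minus strand for Mrps36, at chr7:19715380-19715679 on the minus strand for Tomm40, and at chr16:57121464-57121763 on the plus strand for Tomm70a. Capitals mark CCAAT or its reverse complement ATTGG, letters found in the promoters of 43.2% of tested genes, in Mrps36 and Tomm40, and CCGGAAG or its reverse complement CTTCCGG, the core letters that ETS factors bind, in Tomm70a.
Mrps36: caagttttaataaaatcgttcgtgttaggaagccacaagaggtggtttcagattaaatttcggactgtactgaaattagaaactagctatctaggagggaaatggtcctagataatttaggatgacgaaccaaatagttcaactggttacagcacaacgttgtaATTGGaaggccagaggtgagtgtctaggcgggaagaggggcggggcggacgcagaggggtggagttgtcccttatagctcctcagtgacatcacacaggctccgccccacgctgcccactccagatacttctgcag
Tomm40: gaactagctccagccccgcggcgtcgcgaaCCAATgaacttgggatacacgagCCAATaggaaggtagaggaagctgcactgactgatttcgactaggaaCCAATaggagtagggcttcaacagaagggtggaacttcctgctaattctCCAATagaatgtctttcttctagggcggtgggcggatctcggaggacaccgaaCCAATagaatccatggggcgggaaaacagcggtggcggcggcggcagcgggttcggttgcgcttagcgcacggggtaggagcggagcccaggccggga
Tomm70a: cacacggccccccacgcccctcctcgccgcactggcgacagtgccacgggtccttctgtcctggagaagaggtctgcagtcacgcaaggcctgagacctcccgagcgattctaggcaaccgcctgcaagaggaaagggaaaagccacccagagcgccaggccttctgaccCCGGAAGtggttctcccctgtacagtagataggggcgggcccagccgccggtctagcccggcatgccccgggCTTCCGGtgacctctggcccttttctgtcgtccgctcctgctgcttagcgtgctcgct

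The ribosome as a whole differed little between the genotypes. Of its 111 tested probe sets, 6 fell and 1 rose at an adjusted p of 0.05, which is 6.31% called, against 24.2% of all 13577 probe sets tested (11.4% lower and 12.8% higher). The median log2 change over the ribosome was -0.04, with quartiles of -0.19 and 0.14, against a median of 0.04 over all probe sets. For 107 of the 111 (96.4%) the 95% interval of the change lay within 1 log2 unit of 0, a fold of 2. Larger changes lay outside the interval for these. Over all probe sets the share within 1 unit was 76.6%, with a lower median wild-type signal (406.9, against 1049.55 in the ribosome). Signals of deficient and wild-type cultures did not overlap, deficient lower, for 39 ribosome probe sets, and deficient higher for 31. These were 35.1% and 27.9% of the ribosome, against 28.8% and 34.4% of all probe sets. Over ribosome and import members together they were 35.1% and 31.8%.

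The import machinery had calls in both directions, and in the main fit the share of its probe sets called was near that of all. Of 40 tested probe sets 6 fell and 5 rose, which is 27.5% called, against 24.2% of all, and the median log2 change was 0.04. With scaling to a common median the share was 12.5%, against 22.4% of all. The median of the import machinery minus that of the ribosome was 0.07. Without replicate 1 of the deficient cultures, 2 import probe sets fell and 1 rose (7.5% called, against 13.2% of all), without replicate 2 of the deficient cultures 6 fell and 3 rose, and without replicate 2 of the wild-type cultures 3 fell and 3 rose. The members were compared by these counts and medians alone, and the difference between both groups of genes was not tested. With the brightest probe set of each gene taken, 5 of 74 ribosome genes fell and 0 rose, while 5 of 21 import genes fell and 2 rose. Of all 7798 genes 24.8% were called (11.9% lower and 12.9% higher). By gene, then, falls were a larger share of import than of all genes, a difference that was not tested.

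**Figure D1:**
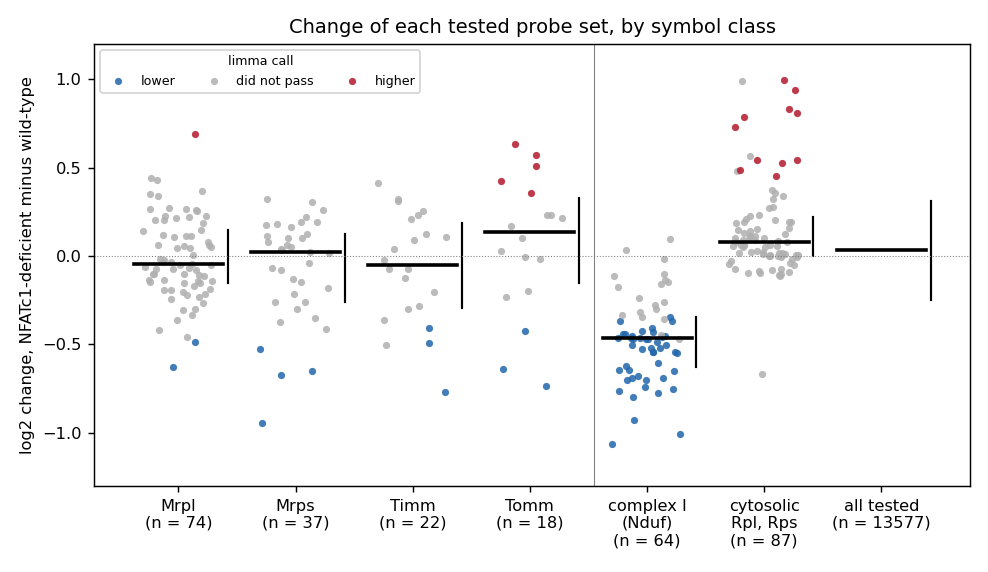
Log2 change of signal, NFATc1-deficient minus wild-type, for each tested probe set (points, coloured by the limma call), by symbol class with complex I subunits and cytosolic ribosomal proteins beside them, with thick lines at the medians and thin bars over the quartiles, and 1 cytosolic point outside the axis. The Mrpl and Mrps medians are -0.05 and 0.02, with points as low as -0.94 (Mrps36), and complex I points lie mostly below 0. Tomm points hold 3 falls (16.7%, against 11.4% of all) and 5 rises (27.8%, against 12.8% of all). The Tomm rises lie on 3 genes, and by the brightest probe set of each of 7 Tomm genes 3 fell and 2 rose.

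In the large subunit by name 2 of 74 tested probe sets fell (2.70%, against 11.4% of all) and 1 rose. Mrpl4, a large subunit protein, had signals of 870.2 and 929.6 in deficient cultures, against 1371.3 and 1433.4 in wild-type cultures, and the groups did not overlap. Its log2 change was -0.63 (SE 0.11, adjusted p = 0.00500, limma). For Mrpl15, also of the large subunit, 1 of 5 tested probe sets fell, with 1875.5 and 2317.6 in deficient cultures, against 3087.4 and 2780.0 in wild-type cultures (log2 change -0.49, SE 0.13, adjusted p = 0.0259, limma). The other Mrpl15 probe sets had log2 changes between -0.19 and -0.05 and did not pass.

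Mrpl13 was the ribosome's only probe set to rise, with 498.1 and 356.7 in deficient cultures, against 269.0 and 236.7 in wild-type cultures (log2 change 0.69, SE 0.19, adjusted p = 0.0314, limma). A brighter Mrpl13 probe set had 1585.6 and 1460.3 in deficient cultures, against 1700.4 and 1569.5 in wild-type cultures, which overlap, and its log2 change was -0.10 (adjusted p = 0.559). Another Mrpl13 probe set had 1184.8 and 895.4 in deficient cultures, against 808.7 and 697.8 in wild-type cultures, with no overlap, and did not pass (log2 change 0.44, adjusted p = 0.0721). Of the 3 Mrpl13 probe sets 2 were thus above 0 and the brightest was below. Among the brightest large subunit genes Mrpl51 had a log2 change of -0.08 and Mrpl52 one of 0.19, neither past the threshold. The calls for Mrpl13 and Mrpl15 were lost without replicate 1 of the deficient cultures (adjusted p = 0.234 and 0.184, limma), and that for Mrpl13 also without replicate 2 of the wild-type cultures (adjusted p = 0.0575). By the brightest probe set of each gene, Mrpl1, Mrpl14 and Mrpl47 lay nearest to 0, at -0.02, -0.03 and -0.04.

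In the small subunit by name 4 of 37 tested probe sets fell, a share of 10.8% that is near the 11.4% of all, and 0 rose. Mrps36 had 815.9 and 683.3 in deficient cultures, against 1622.4 and 1310.9 in wild-type cultures. Its log2 change was -0.94 (SE 0.14, adjusted p = 0.00261, limma). The protein is known as a part of the 2-oxoglutarate dehydrogenase complex, so it is counted with the ribosome here by its name alone. RefSeq lists 3 Mrps36 pseudogenes that could share its probes. Without Mrps36, 5 ribosome probe sets fell and 1 rose, an alternative chosen after seeing the data.

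Mrps25 fell on both tested probe sets. The brighter had 1227.9 and 1118.6 in deficient cultures, against 1640.2 and 1761.2 in wild-type cultures (log2 change -0.53, SE 0.11, adjusted p = 0.0106, limma), and the dimmer had a log2 change of -0.67 (adjusted p = 0.0196, limma). The dimmer one was lost without replicate 1 of either genotype (adjusted p = 0.0867 without the deficient one and 0.0670 without the wild-type one, limma). Mrps18a, which carries a small subunit name but sits in the large subunit of the mammalian ribosome, had 1253.8 and 1174.2 in deficient cultures, against 1806.5 and 2026.8 in wild-type cultures (log2 change -0.65, SE 0.11, adjusted p = 0.00461, limma). Its paralogs Mrps18b and Mrps18c had log2 changes of 0.08 and 0.10 and did not pass. Mrps14 and Mrps34, the brightest genes with a small subunit name, had -0.15 and -0.13 on their brightest probe sets and did not pass. A dimmer Mrps14 probe set had the opposite sign, at 0.19, and did not pass either. Among genes with such names, by brightest probe sets, Mrps26, Mrps5 and Mrps30 lay nearest to 0, at 0.02, 0.02 and 0.03.

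**Figure D2:**
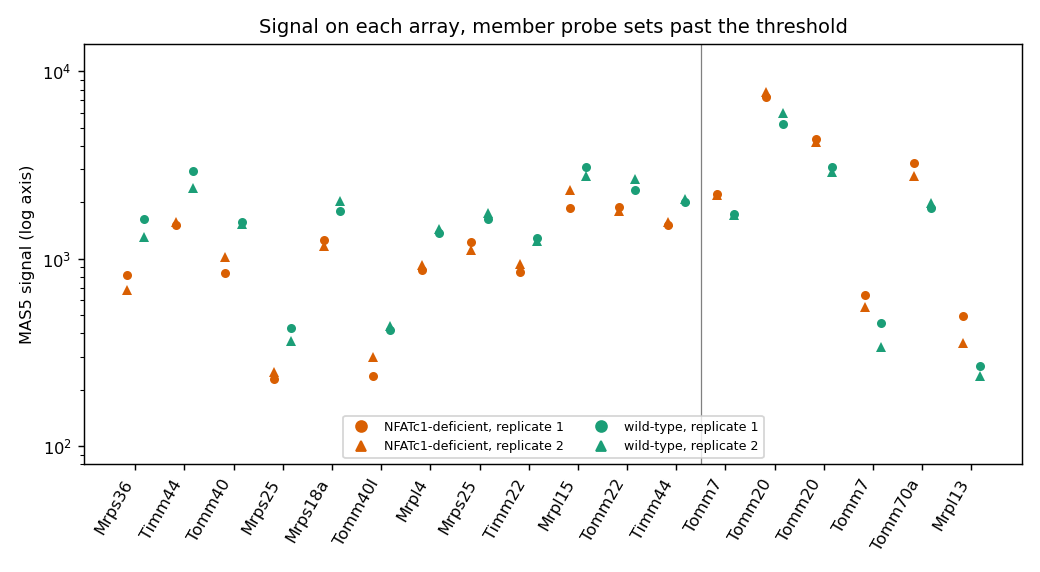
Signal on each array (log axis) for the 18 member probe sets past the threshold, NFATc1-deficient arrays beside wild-type arrays, with replicates 1 and 2 as different markers. Groups did not overlap for any of the 18, but these were picked by a fit on the same signals, so this is no separate result. Of all tested probe sets, 28.8% did not overlap with deficient lower and 34.4% with deficient higher. Mrps36 shows 815.9 and 683.3 in deficient cultures, against 1622.4 and 1310.9 in wild-type cultures.

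In the outer membrane calls went in both directions, also among the receptors, and channel and receptors were not tested against each other. Tomm40, the channel through which imported proteins pass, had 837.0 and 1024.9 in deficient cultures, against 1573.9 and 1535.9 in wild-type cultures. Its log2 change was -0.73 (SE 0.13, adjusted p = 0.00453, limma). Tomm40l, a Tomm40 paralog, had 237.5 and 299.5 in deficient cultures, against 418.6 and 439.3 in wild-type cultures (log2 change -0.64, SE 0.17, adjusted p = 0.0253, limma). Tomm22, the central receptor, had 1885.0 and 1808.0 in deficient cultures, against 2317.8 and 2670.7 in wild-type cultures (log2 change -0.43, SE 0.11, adjusted p = 0.0258, limma), while its dimmer probe set had -0.20 (adjusted p = 0.357). Tomm40l lost its call without replicate 1 of the deficient cultures (adjusted p = 0.146) or replicate 2 of the wild-type cultures (0.0564), and Tomm22 without replicate 1 (0.0743) or 2 (0.0979) of the deficient cultures or replicate 2 of the wild-type cultures (0.116, limma).

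Tomm70a, the receptor for carrier proteins, rose on 1 of 4 probe sets. That probe set had 3226.4 and 2780.7 in deficient cultures, against 1863.9 and 1989.0 in wild-type cultures (log2 change 0.63, SE 0.11, adjusted p = 0.00537, limma), and the others had log2 changes between -0.01 and 0.23. Tomm20, the presequence receptor, rose on 2 of 5. One had 4371.0 and 4192.3 in deficient cultures, against 3081.3 and 2916.3 in wild-type cultures (log2 change 0.51, SE 0.10, adjusted p = 0.00799, limma), and the other had a log2 change of 0.43 (adjusted p = 0.0245, limma).

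The brightest Tomm20 probe set had 10024.1 and 11159.0 in deficient cultures, against 9387.9 and 11419.5 in wild-type cultures, which overlap (log2 change 0.03, adjusted p = 0.893). Tomm7, a small subunit of the TOM complex, rose on 2 of 4 probe sets, with log2 changes of 0.36 (adjusted p = 0.0330) and 0.57 (adjusted p = 0.0427, limma). The first had 2229.6 and 2193.2 in deficient cultures, against 1724.5 and 1713.2 in wild-type cultures. Its other probe sets had 0.10 and -0.00. Without replicate 1 of the deficient cultures none of the called Tomm20 and Tomm7 probe sets passed (adjusted p between 0.0622 and 0.187, limma). The dimmer called Tomm7 probe set also failed without replicate 2 of the wild-type cultures (0.192), the brighter one without any 1 array (0.0645 to 0.142), and the x-suffixed Tomm20 one without replicate 2 of the deficient cultures (0.168). The array medians of all tested Tomm probe sets, each centred on its own mean over the arrays, were 0.08 and 0.08 in deficient cultures, against -0.08 and -0.11 in wild-type cultures (log2 scale). Most of these probe sets belong to Tomm20, Tomm7 and Tomm70a: the median log2 change was 0.14 over the 18 probe sets and -0.23 over the brightest of each of 7 genes, the opposite sign. Tomm34, a cytosolic cofactor, had -0.23 and did not pass.

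All 6 rises among members were on probe sets whose suffix marks probes that match more than 1 transcript. They were 4 of 20 with the x suffix, 1 of 41 with the a suffix and 1 of 9 with the s suffix. For the a suffix these are transcripts of the same gene. None of the 81 members without such a suffix rose, and 8 of them fell, which is 9.88%, against 11.1% of all probe sets without a suffix. Over all probe sets tested, 206 of 1062 with the x suffix, 406 of 2834 with the a suffix and 182 of 1063 with the s suffix rose, against 946 of 8618 without a suffix. The part of cross-hybridisation in the rises was not tested.

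In the TIM23 complex and its motor Timm44 fell. Timm44 tethers the Hsp70 motor to the inner membrane channel. Its probe set with the largest fall had 1518.0 and 1565.5 in deficient cultures, against 2923.2 and 2380.2 in wild-type cultures (log2 change -0.77, SE 0.12, adjusted p = 0.00327, limma). Another fell by 0.41 on the log2 scale (adjusted p = 0.0222, limma), and the remaining one had -0.28 (adjusted p = 0.178). The weaker of both calls was lost without any of 3 arrays (adjusted p between 0.0588 and 0.107), replicate 1 of the wild-type cultures being the exception. No other TIM23 gene passed: Timm23, a channel protein, had -0.12, Timm17a had -0.30 (adjusted p = 0.124), Timm17b had -0.07 and 0.21, and Timm50, the receptor, had 0.31. Hspa9, the motor's Hsp70, had a log2 change of -0.08 (adjusted p = 0.637).

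In the TIM22 complex the channel Timm22 had 853.5 and 938.6 in deficient cultures, against 1294.1 and 1244.6 in wild-type cultures. Its log2 change was -0.49 (SE 0.11, adjusted p = 0.0156, limma), and a dim probe set had -0.50 (adjusted p = 0.223). Without replicate 1 of the deficient cultures the Timm22 call was lost (adjusted p = 0.0791, limma). Timm10b and Timm29, other parts of this complex, had log2 changes between -0.20 and 0.23 and did not pass. None of the tested small Tim chaperones passed. Timm10 came closest, with 1593.4 and 1832.4 in deficient cultures, against 2115.3 and 2287.3 in wild-type cultures (log2 change -0.36, adjusted p = 0.0522, limma). It passed in 6 of the 12 other settings tried, with adjusted p between 0.0229 and 0.0489 there. Among the others, Timm9 had 0.41, Timm8b had 0.32, Timm8a1 had 0.26 and 0.13, and Timm13 had -0.02. Timmdc1, a complex I assembly factor that shares the name, had 0.11.

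**Figure D3:**
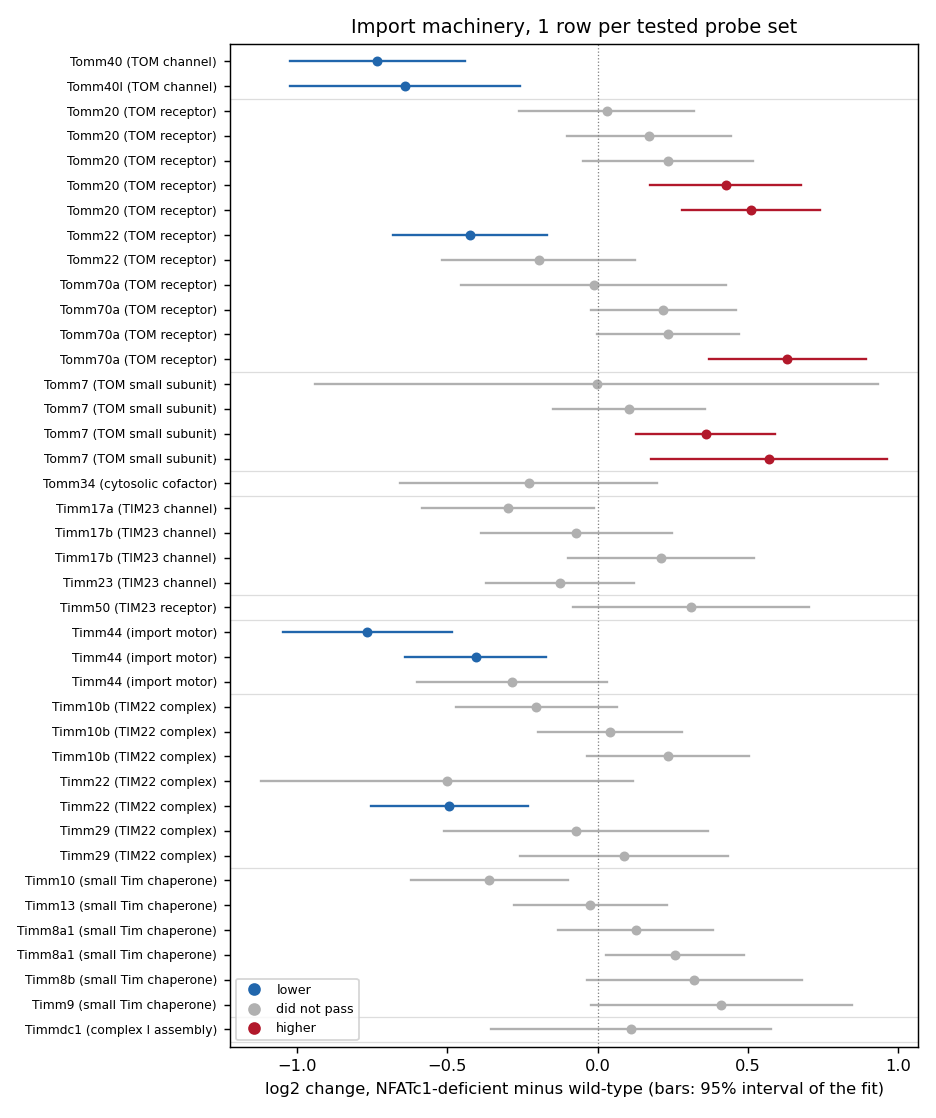
Log2 change of signal, NFATc1-deficient minus wild-type, with the 95% interval of the fit, for each tested Timm and Tomm probe set, 1 row each, ordered by role. Tomm40 and Timm44 lie left of 0 and Tomm70a and Tomm20 hold rows right of 0 and rows near 0.

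Several genes were read by more than 1 probe set, and these did not always give the same answer. Of 95 genes tested, 37 had several tested probe sets, and 16 of the 37 had changes of both signs. In 8 the probe sets differed in passing the threshold, of which 6 were import genes, and 0 genes were called in both directions. A further 12 members did not pass but had an adjusted p between 0.05 and 0.1. They were 11 ribosome probe sets (7 below 0 and 4 above), which is 9.91% of the ribosome against 7.92% of all probe sets, and Timm10.

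Other mitochondrial genes were set beside the members. Of 64 tested probe sets for complex I subunits, which include proteins that the import machinery carries in, 45 fell and 0 rose, which is 70.3%, with a median log2 change of -0.47. Of 87 for cytosolic ribosomal proteins, 1 fell (1.15%, against 11.4% of all) and 11 rose (12.6%, near the 12.8% of all), with a median of 0.08. The ribosome's 6.31% and the import machinery's 27.5% stand beside these shares as descriptions, without a test between the lists.

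Partner genes were counted by the brightest tested probe set of each, beside 11.9% lower and 12.9% higher over all genes. Among partners of the ribosome, 3 of 10 translation genes fell and 0 rose. Letm1, a membrane protein that binds mitochondrial ribosomes, had 293.1 and 327.7 in deficient cultures, against 666.8 and 768.1 in wild-type cultures (log2 change -1.15, SE 0.15, adjusted p = 0.00120, limma). Oxa1l, which inserts newly made proteins into the inner membrane, had a log2 change of -0.87 (adjusted p = 0.00175), and Gfm1, an elongation factor, had -0.50 (adjusted p = 0.0139). Each of these 3 genes also had a probe set that did not pass. The 4 probe sets of Letm1 ran from -1.15 to 0.21, and the other probe set was 0.11 for Oxa1l and -0.34 for Gfm1. Of 7 mitochondrial tRNA synthetases 2 fell, Fars2 (log2 change -0.90) and Sars2 (-0.70), while 0 of 16 ribosome assembly genes and 0 of 8 genes of mitochondrial transcription passed in either direction by that probe set. Dimmer probe sets did pass: 1 each of the assembly genes Dhx30, Fastkd2 and Tfb1m rose, with log2 changes of 0.75, 0.81 and 0.63, and 1 of Polrmt, the mitochondrial RNA polymerase, fell (-0.70).

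Among partners of import 3 of 17 fell and 0 rose. They were Chchd3 (log2 change -0.81) and Immt (-0.57), which shape the inner membrane folds, and Samm50 (-0.43), which inserts outer membrane barrels. Chchd3 and Immt also had probe sets that did not pass, and dimmer probe sets of Gfer (log2 change 0.56) and Mtx1 (-0.56) passed. Of 17 genes of presequence processing, folding and quality control, 1 fell, the protease subunit Afg3l2 (log2 change -0.41, adjusted p = 0.0466, limma). Of 10 regulators, 1 fell and 3 rose. Ppargc1b, a coactivator of mitochondrial genes, had 190.5 and 359.1 in deficient cultures, against 1707.4 and 1548.0 in wild-type cultures (log2 change -2.53, SE 0.24, adjusted p = 0.000352, limma). Myc (log2 change 1.02), Yy1 (0.49) and Pprc1 (0.45) rose, although the 4 probe sets of Yy1 ran from -0.41 to 0.49 and only the brightest passed. Esrra, a receptor that Ppargc1b coactivates, had -0.09 (adjusted p = 0.718).

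**Figure D4:**
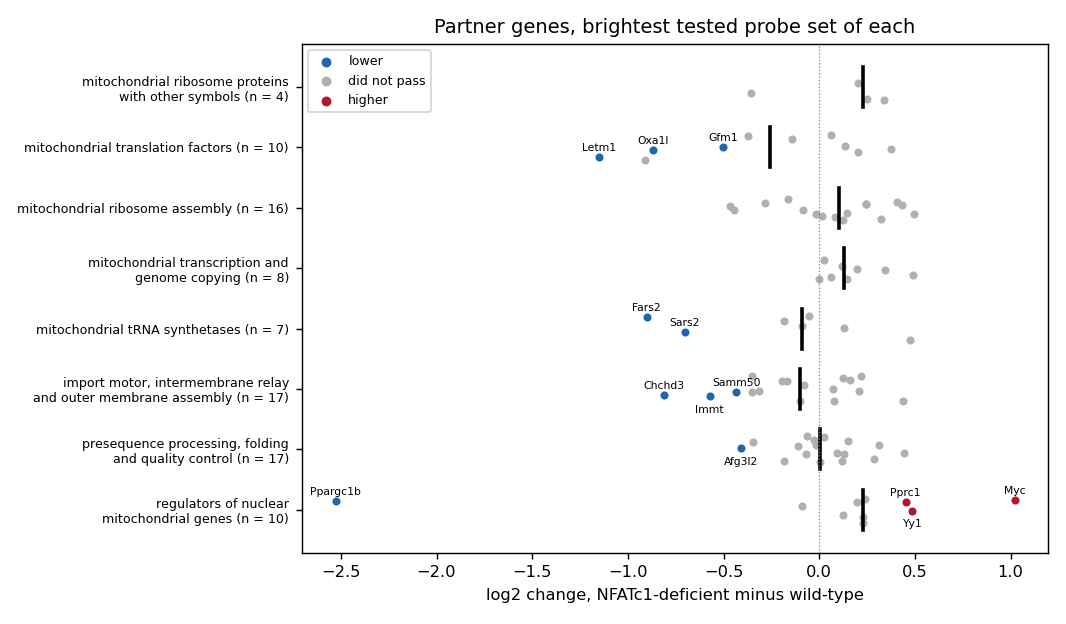
Log2 change of signal, NFATc1-deficient minus wild-type, for the tested genes of the partner and regulator lists, 1 point a gene, with the list median marked. Ppargc1b lies lowest at -2.53, and the assembly and transcription lists hold no gene whose brightest probe set passed.

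Promoter letters were compared for the 85 of 96 member genes with a RefSeq promoter. The ETS core CCGGAAG, searched on both strands, was in 24 of 65 ribosome promoters (36.9%) and 10 of 20 import promoters, against 22.3% of the 6424 tested genes and 9.93% of all genes. The NRF1 core GCGCANGCG was in 23.1% and 15.0%, against 16.9% of tested genes. TGGAAA, the NFAT core, was in 16.9% of ribosome and 10.0% of import promoters, against 19.3% of tested genes. The Tomm40 promoter printed above held 5 CCAAT matches, a number reached by 0.271% of 32851 promoters and 0.7% of tested genes, and CCAAT was searched after its letters were seen. CCAAT was in 38.5% of ribosome promoters and in 5 of 20 import promoters, against 43.2% of tested genes. The Tomm70a promoter held 2 ETS matches, at -80 and -8 from the start. A match describes these letters only.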

How the data were processed

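Total RNA from 4 osteoclast cultures was hybridised to Affymetrix arrays. The authors deposited probe set intensity values on a linear scale, made with MAS5 per the submitters' processing notes, in a version that the sources used here do not name. Detection calls were not used here, so how a low signal stands against background is unknown, and the number of arrays limits the precision.

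A pseudocount of 23.3, taken from percentile 25 of the whole table, was added to each signal before log2, which understates changes of dim genes. The 64 control probe sets and those whose mean signal was at or under percentile 40 (62.0) did not enter the test. It ran on 13577, and 19 of the 170 members were not tested. limma 3.58.1 in R 4.3.3 (lmFit, eBayes with an intensity trend) gave NFATc1-deficient minus wild-type changes, with Benjamini-Hochberg adjustment over all 13577. The script was tested on simulated data with 50 probe sets changed at each fold. It recovered 26 of 50 at a fold of 1.5 and 43 of 50 at a fold of 2. Of its 196 calls there, 27 were false. Genes were named from the platform annotation. In each symbol class up to 6 falls and 6 rises past the threshold, the 2 brightest genes and the 3 smallest changes were named. Also named were every import gene with a role, members whose probe sets differ in passing the threshold, and the largest changes of each list. Partner genes are given by their brightest probe set. Members and lists were chosen with earlier results of these data known. Proteins of the small Tim chaperones were not analysed here. Replicates are called biological by the design text. Same-numbered arrays share a number, a pool size and sex-linked expression, with a correlation of deviations of 0.13 over all probe sets. Alternatives were the pseudocount, filter, scaling, intensity trend, a replicate block, 1 probe set a gene and leaving out each array.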

Additional observations from a re-analysis of the deposited data

Results flagged for a closer look

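The hybridisation controls added to every array, which are no mouse genes, were outside the main comparison. For all 4, the lower of both deficient arrays lay above the higher of both wild-type arrays, with mean log2 differences of 0.28 for BioB, 0.23 for BioC, 0.24 for BioDn and 0.24 for CreX. Their part in the members' results was not tested.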

How the results depend on the processing

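Over the 12 settings tried, 6 of the 18 called members stayed called (Mrpl4, Mrps18a, Mrps36, Tomm40 and 1 probe set each of Tomm70a and Timm44), 12 were lost in at least 1 setting and 0 reversed, while 3 of 29 uncalled import probe sets gained a call in at least 1 (Timm10 in 6, Timm17a and Tomm34 in 1 each). With scaling to a common median, 3 import probe sets fell and 2 rose. Without the filter on low signals, 1157 of all probe sets, 0 of the ribosome and 2 of import rose. Without the intensity trend, 990 of all, 0 of the ribosome and 1 of import rose, and 2 of import fell. With a stricter filter 9 ribosome probe sets fell and 3 rose (11.5% called, against 33.5% of all). Quantile normalization gave 9 falls and 1 rise in the ribosome (9.01% called, against 26.2% of all). The stricter filter left 12 of 35 import probe sets called (34.3%, against 33.5% of all) and the import median was 0.0889. With 1 probe set a gene, 0 ribosome and 2 import probe sets rose. With the replicate number as a block, 9 ribosome probe sets fell and 4 rose, and 7 import probe sets fell and 5 rose. The shares called were then 11.7% of the ribosome and 30.0% of import, against 28.3% of all. Same-numbered arrays share the number, the pool size and the level of sex-linked genes: Xist was 727.7 in deficient and 1114.7 in wild-type replicate 1, and 20.2 and 13.2 in replicate 2. The labels name no shared animals, litter or day, so the numbers were not taken as pairs. Leaving out each array in turn, which assumes that the lone array varies like those of the other genotype, gave 940 to 1546 lower and 854 to 1945 higher over all probe sets, 4 to 7 lower and 1 to 3 higher in the ribosome, and 2 to 8 lower and 1 to 4 higher in import. The medians then ran from -0.0553 to 0.0073 for the ribosome and from 0.0157 to 0.0806 for import, so the ribosome median has no settled sign. Leaving out Mrps36, or Tomm34, Tomm40l and Timmdc1, was chosen after seeing the data and gave 5 lower in the ribosome and 5 lower in import. The cause of these shifts was not tested.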
